A study of Cicer arietinum with 24 samples.

Results

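Leaves and whole seeds at the seed stage 4 (S4) of the small-seeded chickpea (Cicer arietinum) cultivar Himchana 1 were compared by RNA sequencing. Both groups came from field-grown plants, with the leaves of mature plants taken when the seeds of these plants were at mid-maturation and the S4 seeds taken as 1 of 7 seed stages (S1 to S7). The labels number the stage without giving its age, and neither a treatment nor a mutant is part of the design. Each group holds 3 biological replicates (6 of the 24 samples of the series), but the deposited table has 1 FPKM value per locus for the 3 replicates together, so that no replicate error, test or p-value can be given and each difference describes these 2 merged libraries. FPKM is a count of sequenced fragments corrected for transcript length and for the size of the library. The genes compared were those with a locus that carries 1 gene identifier and with at least 1 FPKM in leaf or at S4, which gave 15238 genes out of 25111. The change was calculated as log2 of (S4 FPKM + 1)/(leaf FPKM + 1), and a gene is called higher or lower where it changed at least 2-fold on this scale.

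A leaf is a source organ, in which most of the messenger RNA of mature cells serves photosynthesis and the export of sugars. A legume seed is a sink, in which the embryo first grows by cell division and its cotyledons then expand and store starch and protein before the seed dries. Whole seeds hold seed coat, embryo and any endosperm that is left, so that a lower value may come from fewer cells of a type or from less RNA per cell, which cannot be told apart in these bulk samples. No marker genes of leaf or seed tissue could be checked, since the tables pair identifiers with no gene names. None of the 25111 identifiers could be matched to the 29938 genes that RefSeq lists for the assembly Cicar.CDCFrontier_v2.0, so no sequence or position is given.

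The libraries had nearly the same 75th percentile over all loci, 11.2 FPKM in leaf and 11.3 FPKM at S4, whereas the FPKM of all loci summed to 1099779 in leaf and 787907 at S4. Rescaling to the same sum therefore moved the median change of the compared genes from 0.06 to 0.49, and changes under that scaling are to be read against this shift. The depth of the libraries is unknown, since FPKM values hold no counts. Across the 16390 genes with at least 1 FPKM in any of the 8 libraries, S4 was most like S3 (Pearson r = 0.94 and Spearman rho = 0.94 on the log2 scale), followed by S2 (r = 0.88), S1 and S5 (r = 0.85 for both). Leaf and S4 had r = 0.65 and rho = 0.64. These correlations are over genes, which are not independent replicates.

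More of the genes compared were called changed between leaf and S4 than lay within 2-fold. This did not hold among the 12151 genes with at least 1 FPKM in both libraries, of which 21.2% were higher and 24.8% lower. Of the 15238 genes, 4176 (27.4%) were called higher at S4 and 3917 (25.7%) were called lower, together 53.1%, and 7145 lay within 2-fold. The median change was 0.06, with quartiles at -1.04 and 1.11. The 5th and 95th percentiles were -3.15 and 2.98. At 8-fold, 752 genes (4.94%) were higher and 866 (5.68%) lower. Between neighbouring seed stages fewer genes were called. From S3 to S4, 4.1% of 14571 genes were higher and 3.73% lower (together 7.82%), and from S4 to S5, 12.6% of 14722 genes were higher and 13.3% lower (25.9%). The share called against leaf was 54.8% for S1 (27.7% higher and 27.1% lower), 53.3% for S3 (28% and 25.3%) and 68% for S7 (33.5% and 34.5%), and these comparisons use the same leaf library as that of S4. The balance of both directions moved with the scaling. The called genes were 51.6% higher ones as deposited, 65.4% with equal sums (5599 or 36.7% of all genes higher, 2959 or 19.4% lower) and 59.8% with upper quartile scaling.

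**Figure D1:**
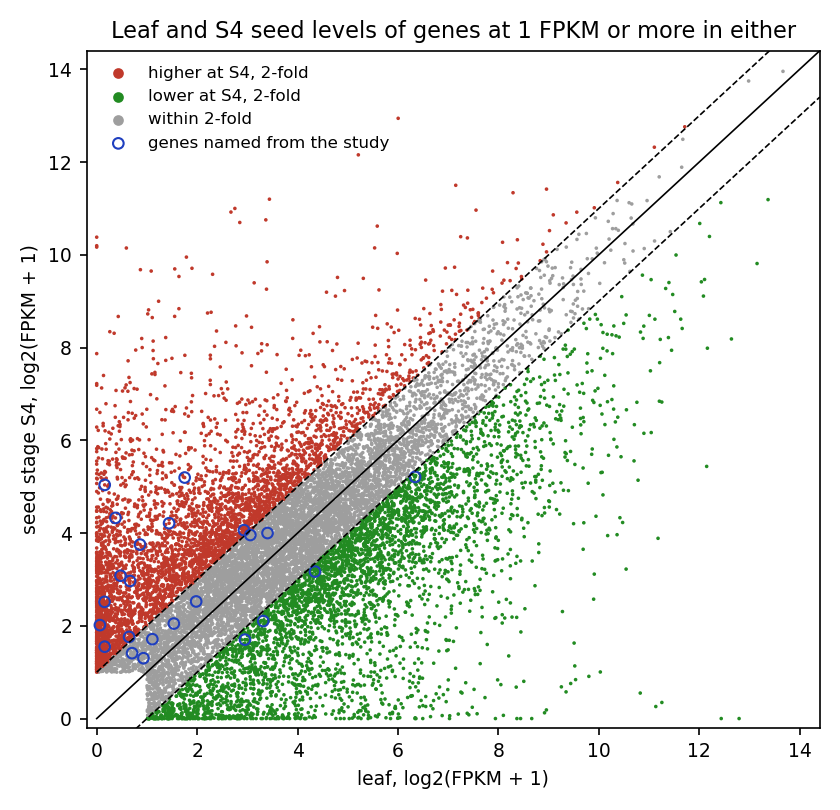
Each point is 1 of the 15238 genes, with the level in leaf (x axis) and at S4 (y axis) as log2(FPKM + 1). The solid line marks equal levels and the dashed lines a 2-fold change, past which 4176 genes lay above and 3917 below, and blue rings mark the named genes that reached 1 FPKM in either library.

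The balance of higher and lower genes shifted with the level. In the lowest quintile of the genes by mean level over leaf and S4 (0.416 to 2.70 FPKM), 40.3% were higher and 19.5% lower at S4, with a median change of 0.64. In the middle quintile the shares were 27.1% and 24.6%. In the highest quintile (33.4 FPKM or more), 16.0% were higher and 34.9% lower, with a median change of -0.38. As deposited, the abundant genes thus leaned to leaf and the weakly expressed genes to S4. The direction in each quintile depends on the scaling, since equal sums moved the median change of all genes compared from 0.06 to 0.49. The quintiles were not counted under that scaling or with 1 FPKM in both libraries.

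The most abundant genes were largely different in the 2 libraries. Of the 100 highest genes of each library, 35 were shared. At S4, 71 of the 100 highest leaf genes were at least 2-fold lower, and 45 of the 100 highest S4 genes were at least 2-fold higher than in leaf. Over all genes compared, 25.7% were lower and 27.4% higher. Each set of 100 was picked on a value that enters the change, which favours these directions. The 100 highest genes held 29.3% of the summed FPKM of genes in leaf and 29.2% at S4. These counts leave out the 1661 loci that join several identifiers, which held 19.0% of the FPKM of all loci in leaf and 13.8% at S4. The highest of those loci in leaf had 16974.5 FPKM, more than any gene counted here. Among the genes counted, Ca_28211 was the highest in both libraries. It had 13013 FPKM in leaf (1.52% of the sum) and 15888 FPKM at S4 (2.43%), a change of 0.29. It was far higher at S3 (141277 FPKM) and S5 (663915 FPKM), and its annotation is not given in the sources used here.

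Some of the differences were those between presence and near absence. Of the 15238 genes, 12151 reached 1 FPKM in both libraries, 1911 only at S4 and 1176 only in leaf. At least 10 FPKM at S4 with less than 1 FPKM in leaf was found for 415 genes, and 31 of the genes under 1 FPKM in leaf reached 100 FPKM. The opposite pattern, at least 10 FPKM in leaf with less than 1 FPKM at S4, was found for 328 genes, 43 of them at 100 FPKM or more. When only the 12151 genes at 1 FPKM in both libraries were counted, 2577 (21.2%) were higher and 3017 (24.8%) lower at S4. At the filter itself, 22 of the 134 genes whose higher value was between 1 and 1.1 FPKM were called, with a largest change of 1.06. The 138 genes between 0.9 and 1 FPKM had a largest change of 0.99. With 1 FPKM added, no gene below 1 FPKM in both libraries can reach 2-fold, so their lack of calls is fixed by the scale.

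Some genes were listed at exactly 0, 178 in leaf and 108 at S4, with a median of 3.07 FPKM at S4 and 3.52 FPKM in leaf in the other library. An exact 0 in such a table can be a failed estimate. The highest of them in leaf, Ca_19807, had 7099 FPKM there and was listed at 0 at S3 and S4, but had 2196 FPKM at S2 and 6367 FPKM at S5. The highest at S4, Ca_06213, had 1332 FPKM there and was listed at 0 in leaf, S1 and S5, but reached 16949 FPKM at S6. Both genes were chosen after their values were seen, and no fold-change is given for them. Of the 108 genes listed at 0 at S4, 9 had at least 10 FPKM at S3 or S5.

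Among genes with at least 1 FPKM in both libraries, Ca_07629 and Ca_03416 were the most strongly higher at S4. Ca_07629 had 1.12 FPKM in leaf and 802 FPKM at S4, a change of 8.56, and it had its highest value at S1 (1686 FPKM). Ca_03416 had 5.38 FPKM in leaf and 1939 FPKM at S4 (change 8.25), climbed to 3004 FPKM at S5 and was at 1.46 FPKM at S6. The first of them was thus present in every seed library, whereas the second was nearly absent from the last stages. The most strongly lower genes were Ca_22775, with 1044 FPKM in leaf and 1.01 FPKM at S4 (change -9.03), and Ca_04405, with 734 and 1.20 FPKM (change -8.39). Ca_22775 was at its highest in leaf and did not exceed 34.0 FPKM in any seed library. Ca_04405 had 45.5 FPKM at S2 and 32.8 FPKM at S6 and stands in the lists of desiccation and QTL genes of the study.

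The biological processes were followed with 6 gene lists of the study, which hold genes of cell cycle, cell growth, differentiation, grain filling and desiccation by GO (gene ontology) term and genes within known quantitative trait loci (QTLs) of seed size/weight. The lists contain only genes that were associated with differential methylation or differentially expressed between seed stages of the large-seeded cultivar JGK 3 or between the cultivars at S3 and S5, so they lean to genes that vary in seeds. Neither the leaf nor the S4 library entered that choice. Of the 2388 listed genes, 1814 were among the genes compared. Of these, 649 (35.8%) were higher and 371 (20.5%) lower at S4, beside 27.4% and 25.7% of all genes. The lists overlap, for example by 133 genes between cell growth and differentiation and by 77 between cell cycle and differentiation.

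Cell cycle genes, which include those that copy the genome and divide the cell, were mostly higher than lower at S4 where they differed. Of 294 genes, 137 (46.6%) were higher and 31 (10.5%) lower, against 27.4% and 25.7% of all genes, and the median change was 0.89 against 0.06. The medians were 4.19 FPKM in leaf and 7.69 FPKM at S4. For genes of similar level (the second lowest quintile, 2.70 to 6.83 FPKM) 33.7% were higher and 21.6% lower. At 8-fold, 10 of the 294 genes were higher and 8 lower, beside 4.94% and 5.68% of all genes. The genes with the largest differences were Ca_16862 (1.18 FPKM in leaf and 281 FPKM at S4) and Ca_07317 (3.54 and 67.8 FPKM) among the higher ones. Among the lower ones they were Ca_05030 (218 and 2.03 FPKM) and Ca_24591 (61.4 and 1.87 FPKM). These genes differed in the rest of the seed stages, as Ca_07317 had its highest value at S1 (220 FPKM) and Ca_24591 came back to 53.7 FPKM at S7. When only genes at 1 FPKM in both libraries were counted, 71 of 203 cell cycle genes (35.0%) were higher and 22 (10.8%) lower, beside 21.2% and 24.8% of all genes under this filter. With equal sums, 170 (57.8%) were higher and 20 (6.80%) lower, beside 36.7% and 19.4% of all genes.

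Cell growth genes leaned the same way. Of 144 genes, 64 (44.4%) were higher and 20 (13.9%) lower, beside 27.4% and 25.7% of all genes. The median change was 0.77, and the medians were 5.76 FPKM in leaf and 8.29 FPKM at S4. Ca_13256 had 1.08 FPKM in leaf and 36.9 FPKM at S4 and was between 14.8 and 42.0 FPKM in all seed stages. Ca_07317, which stands in the cell cycle list as well, was the other of the 2 most strongly higher genes. The most strongly lower genes were Ca_12720 (171 and 3.97 FPKM) and Ca_13426 (69.8 and 3.91 FPKM). Most of the list is shared with others, and of the 26 genes that stand in no other list 11 (42.3%) were higher and 3 (11.5%) lower. Counting genes at 1 FPKM in both libraries, 39 of 112 (34.8%) were higher and 18 (16.1%) lower, beside 21.2% and 24.8% of all genes under this filter.

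In the differentiation list, 221 of 595 genes (37.1%) were higher and 114 (19.2%) lower at S4, against 27.4% and 25.7% of all genes, and the median change was 0.49. Ca_23286 had 1.93 FPKM in leaf and 407 FPKM at S4, and Ca_11363 had 1.59 and 210 FPKM. Both genes had less than 1 FPKM at S6 and S7, and from S1 to S4 at least 124 FPKM, so they were genes of the younger seed. Of the lower genes, Ca_05773 had 112 FPKM in leaf and 1.74 FPKM at S4. Ca_06411 had 1083 FPKM in leaf and 27.3 FPKM at S4, but 845 FPKM at S6 and 1115 FPKM at S7, which is the level of leaf. Counting genes at 1 FPKM in both libraries, 139 of 465 (29.9%) were higher and 92 (19.8%) lower, beside 21.2% and 24.8% of all genes. For the 414 genes in no other list, 141 (34.1%) were higher, 93 (22.5%) were lower and the median was 0.29. These shares lay closer to those of all genes (27.4% and 25.7%) than the shares of the whole list.

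Grain filling genes, which serve the build-up of reserves, were also more often higher than lower at S4. Of 146 genes, 63 (43.2%) were higher and 33 (22.6%) lower at S4, beside 27.4% and 25.7% of all genes. The median change was 0.56, and the medians were 8.32 FPKM in leaf and 10.3 FPKM at S4. Ca_04774 had 3.79 FPKM in leaf, 156 FPKM at S4 and 700 FPKM at S5. Ca_03118 had 16.8 FPKM in leaf, 226 FPKM at S4 and 387 FPKM at S5. Both were thus higher at S5 than at S4, and both were back to 53.2 FPKM or less at S6. Ca_08273 was an abundant leaf gene, with 2361 FPKM in leaf and 114 FPKM at S4, and Ca_06799 had 150 and 4.61 FPKM. Counting genes at 1 FPKM in both libraries, 41 of 114 (36.0%) were higher and 28 (24.6%) lower, beside 21.2% and 24.8% of all genes.

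Desiccation genes, which respond to the loss of water, went both ways. Of 133 genes, 43 (32.3%) were higher and 42 (31.6%) lower at S4, against 27.4% and 25.7% of all genes. The median change was 0.01 against 0.06. With equal sums, 54 (40.6%) were higher and 34 (25.6%) lower, beside 36.7% and 19.4% of all genes under that scaling. This list had the highest level in leaf, with medians of 22.1 FPKM in leaf and 18.9 FPKM at S4. For genes of similar level (the second highest quintile, 14.2 to 33.4 FPKM) 20.0% were higher and 27.9% lower. Beside these, the desiccation list had a larger share of higher genes. Ca_19118 had 2.45 FPKM in leaf and 988 FPKM at S4, its highest value, and Ca_09569 had 1.60 FPKM in leaf and 100 FPKM at S4, also its highest. Ca_04405, given above, and Ca_04027 (156 FPKM in leaf and 5.62 FPKM at S4) were the most strongly lower. When genes at 1 FPKM in both libraries were counted, 25 of 101 (24.8%) were higher and 32 (31.7%) lower, beside 21.2% and 24.8% of all genes, and the median change was -0.15.

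The QTL list, which rests on map position, had shares near to those of all genes. Of its 773 genes, 237 (30.7%) were higher and 170 (22.0%) lower at S4, beside 27.4% and 25.7% of all genes. The median change was 0.16 against 0.06. The most strongly higher were Ca_15856, with 9.85 FPKM in leaf and 2350 FPKM at S4, and Ca_06315, with 1.56 and 143 FPKM. Ca_15856 was highest at S3 (3777 FPKM) and Ca_06315 at S1 (893 FPKM), and both had less than 1 FPKM at S6 and S7. Besides Ca_04405, the most strongly lower gene was Ca_04534, with 285 FPKM in leaf and 4.94 FPKM at S4. Counting genes at 1 FPKM in both libraries, 155 of 621 (24.96%) were higher and 140 (22.5%) lower, with a median change of 0.01, beside 21.2% and 24.8% of all genes, so that the lean to S4 was small.

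**Figure D2:**
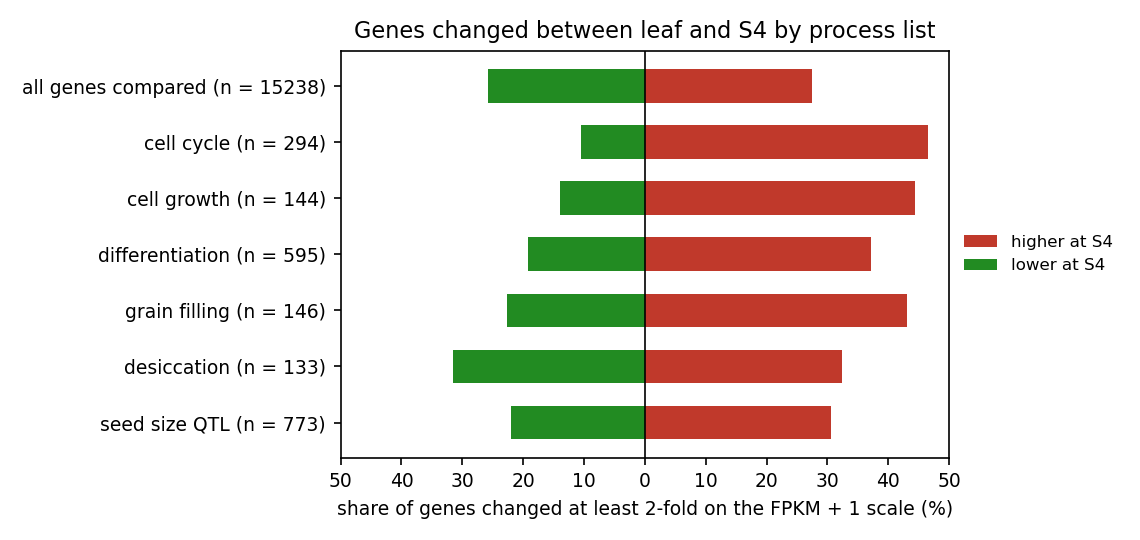
Bars show the share (%) of genes at least 2-fold higher at S4 (right, red) or lower at S4 (left, green) for all 15238 genes compared and for each process list, with the number of genes in brackets. Cell cycle genes were the most one-sided, with 46.6% higher and 10.5% lower, and desiccation genes the most even, with 32.3% and 31.6%.

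The levels of the lists in the seed libraries that were not used here to call genes were set beside those of S4. Over all listed genes with a value, the median of the 358 cell cycle genes was 2.39 FPKM in leaf, 7.47 FPKM at S1, 5.54 FPKM at S4, 2.96 FPKM at S5 and 1.56 FPKM at S6. The S4 level of this list thus lay above leaf and the later stages and below S1. The medians of S2 (5.76 FPKM) and S3 (5.32 FPKM) were close to that of S4. The 183 cell growth genes had 3.11 FPKM in leaf, 7.46 FPKM at S1, 5.79 FPKM at S4 and 1.17 FPKM at S6. Grain filling genes (173) had 4.70 FPKM in leaf, 8.06 FPKM at S4 and 3.53 FPKM at S6. Their medians stayed between 7.45 and 8.41 FPKM over the whole span from S1 to S5, with the highest at S5. The level of this list thus set S4 apart from leaf and S6, but not from the other stages up to S5. Desiccation genes (156) had 12.1 FPKM in leaf, 6.90 FPKM at S3, 10.9 FPKM at S4 and 13.7 FPKM at S5, the only list whose median was lower at S4 than in leaf. The median of all 25111 genes was 1.56 FPKM in leaf, 2.29 FPKM at S4 and 0.482 FPKM at S7, so part of the low late values is common to all genes.

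**Figure D3:**
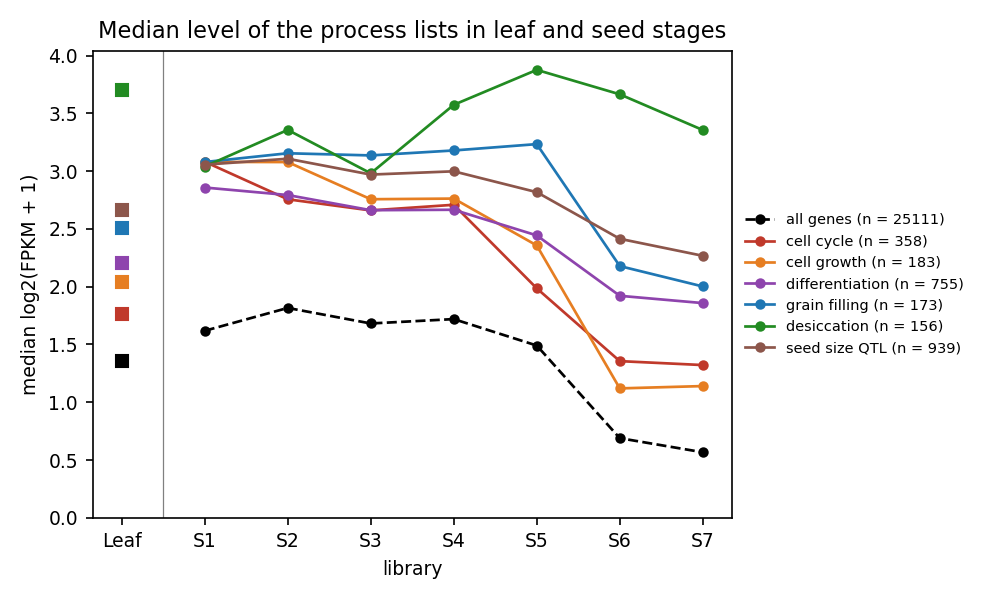
Lines give the median log2(FPKM + 1) of each process list and of all genes (dashed) over the seed stages S1 to S7, and squares give the leaf value at the left. The cell cycle median was 3.08 at S1, 2.71 at S4 and 1.76 in leaf, and that of desiccation genes was 3.57 at S4 and 3.70 in leaf.

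The genes that differed between leaf and S4 had different profiles in the rest of the seed libraries. The 4176 genes higher at S4 had a median of 2.02 FPKM in leaf and 13.9 FPKM at S4, with 11.4 FPKM at S1, 13.3 FPKM at S3, 12.1 FPKM at S5, 4.02 FPKM at S6 and 2.82 FPKM at S7. They were high in the seed up to S5, and their median at S7 was close to that of leaf. Of these genes, 1667 had less than 1 FPKM at S7 and 499 had less than 1 FPKM at S1. Their highest value over all 8 libraries was at S4 for 719 genes (17.2%), at S1 for 803, at S5 for 797, at S3 for 583 and at S7 for 568. Leaf could not hold it, since the genes were chosen for a value at S4 above that of leaf. With equal sums 1652 had it at S4, as the summed FPKM of S5 (2109359), S6 (2428094) and S7 (2515731) were larger than that of S4 and their values were scaled down the most. Among the 137 cell cycle genes higher at S4, 66 (48.2%) had their highest value at S1, against 19.2% of all 4176 genes. For grain filling the most frequent stage was S5, with 17 of 63 genes (27.0%, against 19.1%). Of the 43 desiccation genes higher at S4, 10 (23.3%) were highest at S4 and 11 (25.6%) at S6, against 17.2% and 9% of all 4176 genes, and their median was 22.2 FPKM at S4 and 45.5 FPKM at S5.

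The 3917 genes lower at S4 had a median of 32.0 FPKM in leaf and 5.68 FPKM at S4, and their medians stayed between 5.12 and 8.56 FPKM in all seed stages. For 2809 of them (71.7%) leaf held the highest value of all libraries, and with equal sums this was so for 3074. These genes were chosen for a leaf value above that of S4, which favours leaf and excludes S4 as the highest library. As deposited, the highest library was S7 for 587 (15.0%) and S6 for 276 (7.05%). On this scale, a part of the genes lower at S4 than in leaf was thus high again in the oldest seeds. The genes highest at S6 or S7 were not counted with equal sums. In the desiccation list, 10 of 42 lower genes (23.8%) had their highest value at S7, and their median went from 41.1 FPKM in leaf and 5.92 FPKM at S4 to 21.7 FPKM at S7. In the cell cycle list, 26 of 31 lower genes were highest in leaf.

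**Figure D4:**
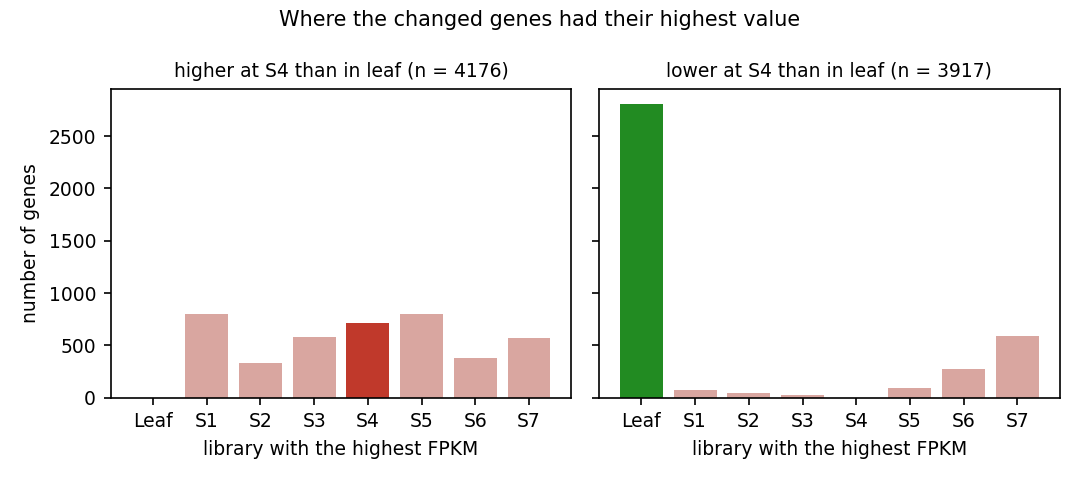
Bars give the number of genes that had their highest FPKM in each of the 8 libraries, for the 4176 genes higher (left) and the 3917 genes lower (right) at S4 than in leaf. The former spread over all seed stages, with 719 at S4, and the latter were highest in leaf for 2809 genes and at S7 for 587. By the choice of the genes, leaf is empty on the left and S4 on the right, and leaf is favoured on the right.

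Genes that are named with a function were examined next, 13 named in the text of the study as candidates for seed size/weight and 12 genes of DNA methylation. The identifiers of the latter were taken from an earlier description of these data and could not be checked against an annotation. The 13 were chosen by the study between the cultivars at S3 and S5, not on leaf or S4. Of all 25 genes, 23 reached 1 FPKM in leaf or at S4, and of these 12 were higher and 4 lower, beside 27.4% and 25.7% of all genes.

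Of the 5 transcription factor genes, 3 were higher and 2 lower at S4. Auxin response factors (ARFs) bind auxin-responsive promoters, and the ARF gene Ca_10748 had 0.117 FPKM in leaf and 31.9 FPKM at S4, a change of 4.88. It was between 16.2 and 61.9 FPKM from S1 to S5 and below 1 FPKM at S6, S7 and in leaf. The gene of a C3HC4-type zinc finger protein, Ca_09815, had 0.295 FPKM in leaf and 19.1 FPKM at S4 (change 3.95), near its highest value of 20.3 FPKM at S1. For the homeobox gene Ca_04491, S4 was the highest of all libraries, with 12.5 FPKM against 0.819 FPKM in leaf (change 2.89) and 0.911 FPKM at S5. The type-B response regulator gene Ca_14780 (ARR-B, a family that acts in cytokinin signalling) was lower at S4, with 6.74 FPKM in leaf and 2.25 FPKM at S4 (change -1.25). The gene of a dof zinc finger protein, Ca_09238, was likewise lower, with 8.96 FPKM in leaf and 3.29 FPKM at S4 (change -1.21). Leaf was the highest of all libraries for both of the lower genes. After rescaling to the same sum they stayed lower, with changes of -0.88 for Ca_14780 and -0.81 for Ca_09238, no longer 2-fold. For Ca_09238 the change was -0.99 with upper quartile scaling.

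Genes for the start of DNA replication were low in leaf and present at S4. CDC6 loads the replicative helicase onto origins, and its gene Ca_15618 had 0.116 FPKM in leaf and 1.93 FPKM at S4, a change of 1.39. The minichromosome genes stand for the maintenance proteins that form this helicase. Of them, Ca_09549 had 0.390 FPKM in leaf and 7.45 FPKM at S4 (change 2.60), and Ca_15408 had 0.585 and 6.82 FPKM (change 2.30). Ca_12014 had 1.15 FPKM in leaf and 2.27 FPKM at S4, a change of 0.60 that was not called. All 4 genes were highest at S1, where Ca_09549 reached 46.5 FPKM, and each was higher at S4 than at S5. At S4 they thus stood between leaf and the youngest seed.

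The GH3 genes, whose family joins auxin to amino acids, went opposite ways. Ca_06937 had 0.0451 FPKM in leaf and 3.04 FPKM at S4 (change 1.95), on the way from 0.0602 FPKM at S1 to 101 FPKM at S7. Ca_23631 had 19.3 FPKM in leaf and 7.99 FPKM at S4 (change -1.18), after 120 FPKM at S2. Its change was -0.73 after rescaling to the same sum and -0.93 with upper quartile scaling, so that it was no longer 2-fold. Of the 2 named QTL genes, the F-box gene Ca_01760 had 80.1 FPKM in leaf and 36.0 FPKM at S4 (change -1.13), summed over 2 loci. The difference was not 2-fold with the highest locus alone (-0.78), after rescaling to the same sum (-0.66) or with upper quartile scaling (-0.87). Ca_09981, of an RNA recognition motif protein, had 1.90 and 3.14 FPKM (change 0.51).

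DNA methyltransferases place the methyl groups, and in Arabidopsis MET1 maintains CG methylation, the chromomethylases (CMT) act on non-CG sites and DRM genes on sites guided by small RNAs. All 6 genes had higher values at S4 than in leaf, and 4 of them were 2-fold higher. *CaCMT1* (Ca_20580) had 1.72 FPKM in leaf and 17.5 FPKM at S4 (change 2.77), summed over 2 loci. *CaCMT3* (Ca_23587) had 0.114 and 4.72 FPKM (change 2.36), and *CaMET1* (Ca_18432) had 0.564 and 2.39 FPKM (change 1.12). These 3 genes were highest at S1 and below 1 FPKM at S6 and S7, so at S4 they stood above both leaf and the last seed stages. *CaDRM2* (Ca_03062) had 6.63 FPKM in leaf and 15.7 FPKM at S4 (change 1.13) and was higher than leaf in all seed stages, up to 21.4 FPKM at S5. *CaDRM1* (Ca_12577) had 7.34 and 14.5 FPKM, its highest value, but its change of 0.90 was called only after rescaling to the same sum (1.34) or with upper quartile scaling (1.14). *CaCMT2* (Ca_17866) had 0.630 and 1.66 FPKM, a change of 0.71 that was 1.27 with a pseudocount of 0.1.

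Demethylases remove methylated cytosines. Of the 6 genes, 4 reached 1 FPKM in leaf or at S4, and 1 of these was 2-fold higher. Ca_17547 had 2.37 FPKM in leaf and 35.7 FPKM at S4, a change of 3.45, and was at the same height at S3 (35.5 FPKM) and S5 (37.5 FPKM). The changes of Ca_20137 (9.57 and 15.0 FPKM), Ca_08414 (2.95 and 4.76 FPKM) and Ca_17329 (0.906 and 1.46 FPKM) were 0.60, 0.54 and 0.37. That of Ca_20137 was 1.04 after rescaling to the same sum. Ca_17326 (0.414 and 0.958 FPKM) and Ca_07031 (0.568 and 0.945 FPKM) stayed below 1 FPKM in both libraries.

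**Figure D5:**
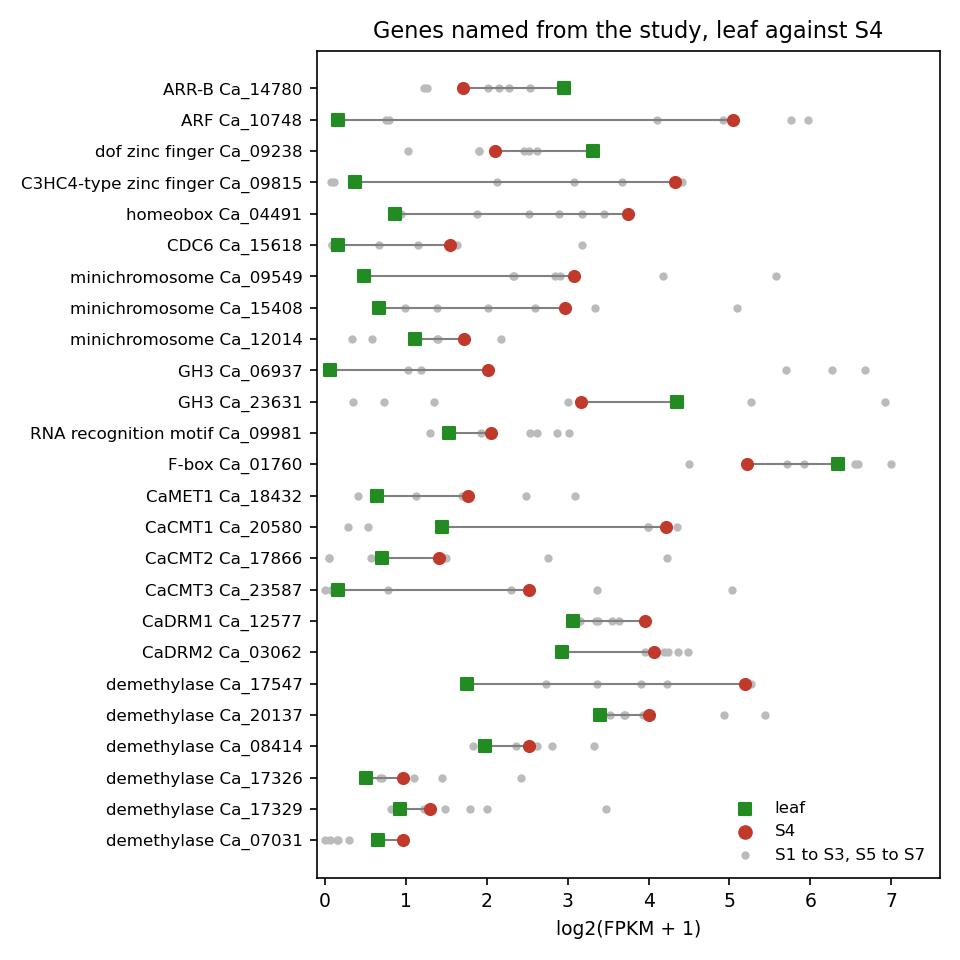
For each of the 25 named genes, the green square is the level in leaf, the red circle that at S4 and the grey dots those of the remaining seed stages, as log2(FPKM + 1). Of these genes, 12 were called higher and 4 lower, with the widest gap for the ARF gene Ca_10748 (change 4.88).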

How the data were processed

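After quality filtering (NGS QC Toolkit), TopHat placed the reads on the chickpea genome and Cufflinks gave the FPKM values that the authors deposited, 1 value per locus for the 3 replicates of a group together. The genome build, the versions, how replicates were merged and how libraries were scaled to each other are not given in the sources used here for these reads. Of 35234 loci per table, the 26305 with 1 gene identifier were used, and loci of the same identifier (1168 genes) were summed. The 1661 loci that join identifiers and the 7268 that carry no identifier did not enter the gene values.

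Genes with at least 1 FPKM in leaf or at S4 were compared on the log2(FPKM + 1) scale and called at 2-fold. On this scale the fold-change of weakly expressed genes comes out too small. No test was run, and no leave-one-out fit or replicate block, since the values have no replicates. The genes and lists were chosen with earlier results of these data known. The lists were read from the supplementary gene lists of the study (used as annotation only), and cell cycle and grain filling genes of 2 such lists were joined. Genes named are the 13 with identifiers in the text of the study, 6 DNA methyltransferases and 6 demethylases (identifiers from an earlier description of these data, not checked against an annotation), the 2 most strongly higher and 2 most strongly lower genes over all genes and in each list (at least 1 FPKM in both libraries), and the gene with the highest FPKM in each library.

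Alternatives were pseudocounts of 0.1 and 0.01, other minimum values, 3 other scalings, other handling of loci, a 4-fold change and the lists from JGK 3 stages alone. Use of genes of 1 list only was added after seeing the data. The counting was tested on simulated data. Python 3.11.15, numpy 2.4.6 and pandas 2.3.3 were used.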

Additional observations from a re-analysis of the deposited data

Results flagged for a closer look

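The comparison did not use loci that carry no gene identifier. At S4, 464 of the 7268 such loci had at least 10 FPKM, and 36 of these were listed at 0 in leaf, the highest at 331 FPKM. In leaf, 532 had at least 10 FPKM, and 40 of these were listed at 0 at S4, the highest at 274 FPKM. Their part of all FPKM was 3.29% at S4 and 3.30% in leaf.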

How the results depend on the processing

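No paired analysis was possible because columns for single replicates were not among the values analysed, and the planned fits without each replicate were not run for the same reason. Among the 300 alternative values of the named genes, 285 stayed on the same side of the 2-fold limit. This number was favoured by the genes picked for the largest changes, which lay far past the limit. The 15 values that crossed it all belonged to the 25 genes named from the study. None of the 300 turned a called change to the opposite sign, but this was largely fixed beforehand. Another pseudocount cannot alter the sign, and the scalings shift a change by less than the 2-fold limit. The number of higher genes, 4176 as deposited, was 2577 with at least 1 FPKM in both libraries and 1721 at 4-fold, and that of lower genes, 3917 as deposited, was 1887 at 4-fold. These follow from fewer genes tested or a stricter limit. With at least 1 FPKM in both libraries, the numbers of higher genes were 71 for cell cycle, 39 for cell growth, 139 for differentiation, 41 for grain filling, 25 for desiccation and 155 for QTLs. After rescaling to the same sum, 20 cell cycle genes were lower (31 as deposited), and 1652 of the genes higher at S4 had their highest value there (719 as deposited). With genes of 1 list only, 11 cell growth genes were higher and 3 lower, and 141 differentiation genes were higher, as fewer genes were counted. Of the 136 alternative counts over the process lists by direction, 126 were within 1.5 times the value as deposited. Low values have unknown precision, since the depth is unknown.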
